A study of Ambystoma mexicanum with 12 samples.

Results

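Gene expression was examined for 60 axolotl genes that were higher in distal than in proximal forelimb blastemas and whose mean level moved little when distal blastemas were exposed to talarozole. The 60 were chosen by measured values, from a table of 99081 gene identifiers. A gene entered if its identifier began with AMEX60DD and not AMEX60DDU, if it had at least 10 estimated counts in at least 3 of the 12 libraries, and if its mean distal level under vehicle was at least 1 above its mean proximal level on the log2(CPM + 0.5) scale. CPM is the estimated count scaled to a common library total, by the usual definition. The mean at each talarozole dose also had to lie within 0.5 of the distal vehicle mean. Of the genes that passed, the 60 with the largest gap were taken, where the gap is the lowest of the 9 distal libraries minus the highest of the 3 proximal libraries. All 12 libraries and every group difference thus entered the choice, so the values of the members are given as a description.

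All animals were white (d/d) axolotls (Ambystoma mexicanum) aged 3 months and 5 cm long, and each library was made from a pool of 3 forelimb blastemas collected 14 days after amputation. The distal blastemas arose at a cut through the carpals and were exposed to the solvent dimethyl sulfoxide (DMSO), to 0.1 uM talarozole (TAL) or to 1 uM TAL. The proximal blastemas arose at a cut high on the humerus and were exposed to DMSO. TAL or DMSO was in the housing water from day 4 for 7 days, renewed on alternate days, and plain water followed. Each of the 4 groups held 3 libraries, and no proximal group with TAL was analysed here.

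The blastema is the mound of progenitor cells that forms on an amputated limb and regrows the missing part, and its cells carry information on where along the limb they arose. Retinoic acid, a vitamin A derivative that acts through nuclear receptors, shifts distal blastemas towards a more proximal identity when it is supplied in excess. CYP26 enzymes break retinoic acid down, and talarozole inhibits them. A gene that is high in distal blastemas and stays high under talarozole is the counterpart of the distal genes that fall when retinoic acid breakdown is blocked.

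The estimated counts per library summed to between 8409618 and 13937318, and the 3 libraries of 1 uM TAL were the deepest. Libraries of the same group were about as alike as libraries of different groups, with a median Spearman correlation across genes of 0.868 over 12 pairs and 0.867 over 54 pairs. A value of 1 in the table was not 1 read. In each library between 13 and 31 identifiers held exactly 1, whereas the value held by most identifiers lay between 38.65 and 52.2 and was shared by 49 to 85 of them. Depth could therefore not be turned into counting intervals. Gene names are not paired with the identifiers in the table, and 0 of the identifiers matched the RefSeq gene list, so no function, cell type or sequence can be given for any member, and the labelled tissue could not be checked against marker genes. In pools of whole blastemas, fewer cells of a type and less RNA per cell cannot be told apart.

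The count minimum left 21835 genes. Of these, 1680 were at least 1 higher in distal than in proximal vehicle blastemas. Among the 1680, 728 (43.3%) also met the limit at 1 uM TAL, and 166 (9.88%) met it at both doses. Over all 21835 genes the shares were 74.3% and 61.1%, so the limits were met less often among the 1680. The distal vehicle mean entered both the choice of the 1680 and the limits. Only 31 of the 166 had a gap above 0, 99 had a gap below 0, and 36 had a gap of exactly 0. The 60 genes were thus the 31 with a gap above 0 and 29 of the 36 at exactly 0, taken in the order of the table, with 7 equal genes left out. The gap fell from 1.68 for the first gene to 0.83 for the second and 0.000307 for gene 31, whose lowest distal library was at 0.936138 CPM and highest proximal library at 0.935833 CPM. Just outside, the nearest gene below 0 had a lowest distal library of 1.07 CPM and a highest proximal library of 1.08 CPM. Members are called below by their rank in this order, and identifiers are given for 6 of them.

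In the first 31 members every distal library, with or without TAL, lay above every proximal library. The rule ranked genes on this gap, so the order was built in and does not show that levels were kept under TAL. The description as distal genes kept under TAL lacked even this order in the other 29. Each of these 29 was listed at 0 in all 3 proximal libraries and in at least 1 distal library, so their gap of 0 came from equal zeros. Over all 21835 genes, 0.554% had every distal library above every proximal library. The reverse order, every proximal library above every distal one, was found in 0.696%. With the same limits on the group means but proximal blastemas higher, 100 genes passed and 32 of them had no overlap, against 31 of 166 for distal blastemas.

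**Figure D1:**
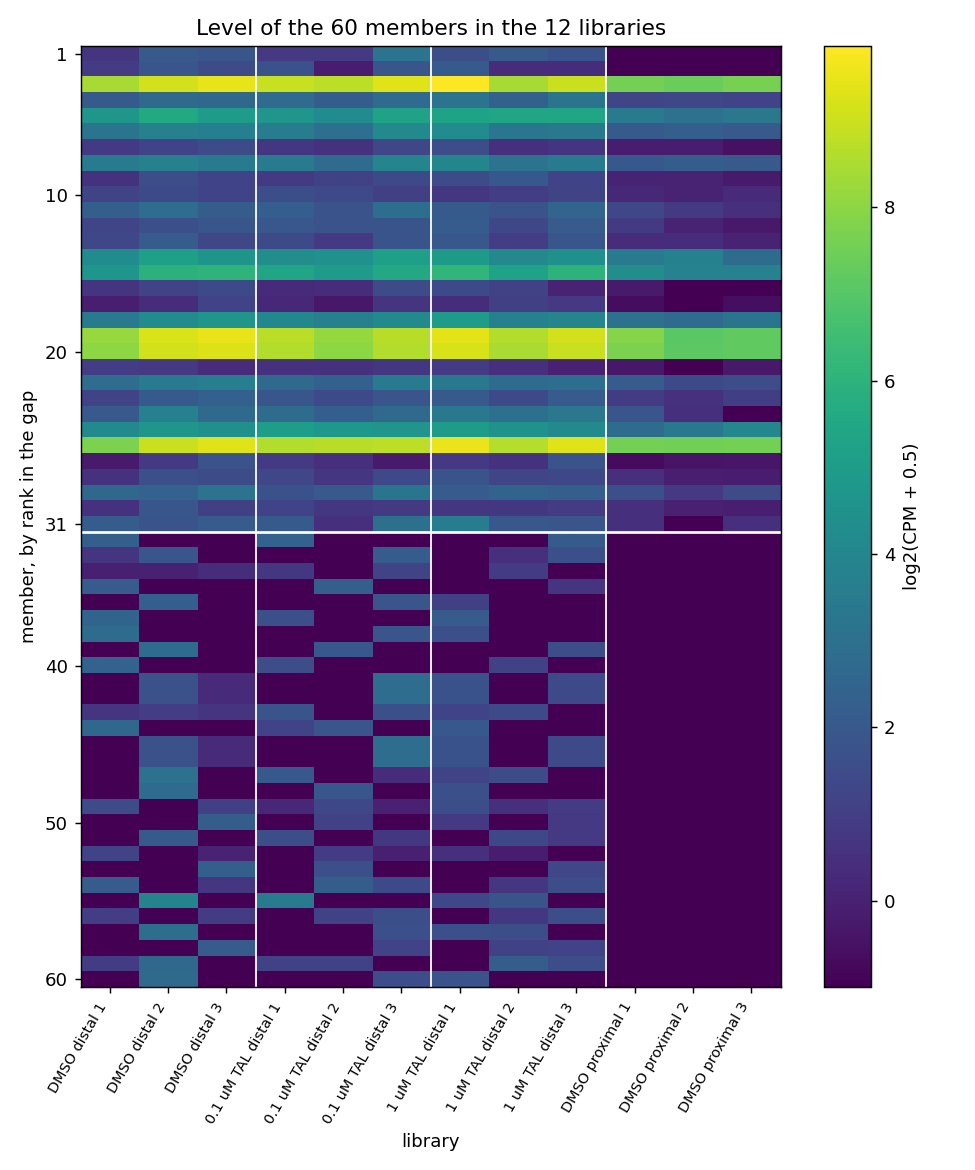
Level of the 60 members, as log2(CPM + 0.5) in colour, in the 12 libraries, with members in rows by rank in the gap and libraries in columns by group. The white horizontal line separates the 31 members with a gap above 0 from the 29 at 0, whose cells are dark in every proximal library and in 1 to 6 of the 9 distal libraries.

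AMEX60DD031141 had the largest gap. It was at 1.10, 3.57 and 3.14 CPM in the distal vehicle libraries, at 1.23, 1.28 and 8.41 CPM with 0.1 uM TAL, at 2.53, 3.54 and 2.80 CPM with 1 uM TAL, and was listed at 0 in all 3 proximal libraries. The group means were 2.60 ± 1.32, 3.64 ± 4.13 and 2.96 ± 0.523 CPM (SD, n = 3) in that order of the distal groups. The 3 distal groups overlapped, and library 3 of 0.1 uM TAL stood above all the others. Of its 9 values above 0, 6 were shared with at least 4 other identifiers of the same library, and its lowest value was held by 21 identifiers.

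AMEX60DD006283 was the other member with 0 in every proximal library and a value above 0 in every distal one. It was at 1.38, 3.24 and 2.34 CPM under vehicle, at 2.84, 0.392 and 3.26 CPM with 0.1 uM TAL and at 3.73, 0.783 and 0.832 CPM with 1 uM TAL. Its mean was 2.32 ± 0.927 CPM under distal vehicle, 2.16 ± 1.55 with 0.1 uM TAL and 1.78 ± 1.69 with 1 uM TAL (SD, n = 3). Both doses had libraries above and below the vehicle range. Library 2 of 0.1 uM TAL and libraries 2 and 3 of 1 uM TAL were its 3 lowest distal values.

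AMEX60DD018616, of rank 3 in the gap, had the highest mean distal CPM of all members, at 553. It was at 342, 563 and 706 CPM under distal vehicle, at 490, 435 and 652 CPM with 0.1 uM TAL, at 930, 349 and 512 CPM with 1 uM TAL, and at 194, 172 and 196 CPM in the proximal libraries. Its group means were 537 ± 184, 526 ± 113, 597 ± 300 and 188 ± 13.5 CPM (SD, n = 3). The proximal libraries lay close together and below all 9 distal ones, while the 3 distal groups overlapped. Proximal minus distal vehicle was -1.48 on the log2 scale (SE 0.349, adjusted p = 0.546 in edgeR's quasi-likelihood test with Benjamini-Hochberg adjustment), and 1 uM TAL minus distal vehicle was 0.10 with a 95% interval from -0.66 to 0.87.

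AMEX60DD017567, of rank 26, was the second highest, with a mean distal CPM of 489. It was at 213, 511 and 648 CPM under distal vehicle, at 393, 411 and 436 CPM with 0.1 uM TAL, at 750, 399 and 639 CPM with 1 uM TAL, and at 192, 186 and 193 CPM in proximal libraries. The means were 457 ± 222, 413 ± 21.6, 596 ± 179 and 191 ± 3.65 CPM (SD, n = 3). Distal vehicle library 1 alone brought its gap down to 0.14, since the next lowest distal library stood at 393 CPM. The edgeR log2 difference was -1.22 (SE 0.345, adjusted p = 0.663) between proximal and distal vehicle, and 0.36 with a 95% interval from -0.40 to 1.12 between 1 uM TAL and distal vehicle.

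Ranks 4, 5 and 6 followed with smaller values and a like layout. Rank 4 was at 3.75, 6.32 and 5.82 CPM under distal vehicle, at 6.40, 4.04 and 6.48 with 0.1 uM TAL, at 8.18, 4.62 and 8.43 with 1 uM TAL and at 1.90, 1.98 and 1.77 in proximal libraries. Rank 5 was at 26.7, 48.2 and 31.2 CPM under distal vehicle, at 25.2, 18.4 and 38.1 with 0.1 uM TAL, at 39.4, 40.7 and 42.4 with 1 uM TAL and at 10.7, 8.16 and 9.44 in proximal libraries. In both, the highest proximal library lay well under the lowest distal one, and the dose groups overlapped with distal vehicle. In rank 5, by the library total, every library of 1 uM TAL lay above every library of 0.1 uM TAL, the closest at 39.4 and 38.1 CPM. The TMM scaling factors used in edgeR, 1.11 and 0.903 for these libraries in that order, reverse that pair. The fitted log2 difference between the doses was 0.48 with a 95% interval from -0.15 to 1.12. How many of all genes had such an order was not counted. Rank 5 had the smallest adjusted p of all members in edgeR, 0.155, for a log2 difference of -1.87 (SE 0.294) between proximal and distal vehicle. Rank 6 was at 8.61, 12.9 and 12.5 CPM under distal vehicle, at 11.7, 7.41 and 18.0 with 0.1 uM TAL, at 18.5, 9.12 and 9.62 with 1 uM TAL and at 3.72, 4.34 and 3.63 in proximal libraries. In rank 6 each dose group held 1 library above all vehicle libraries, at 18.0 and 18.5 CPM, and the others were at or below the vehicle range's upper end.

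**Figure D2:**
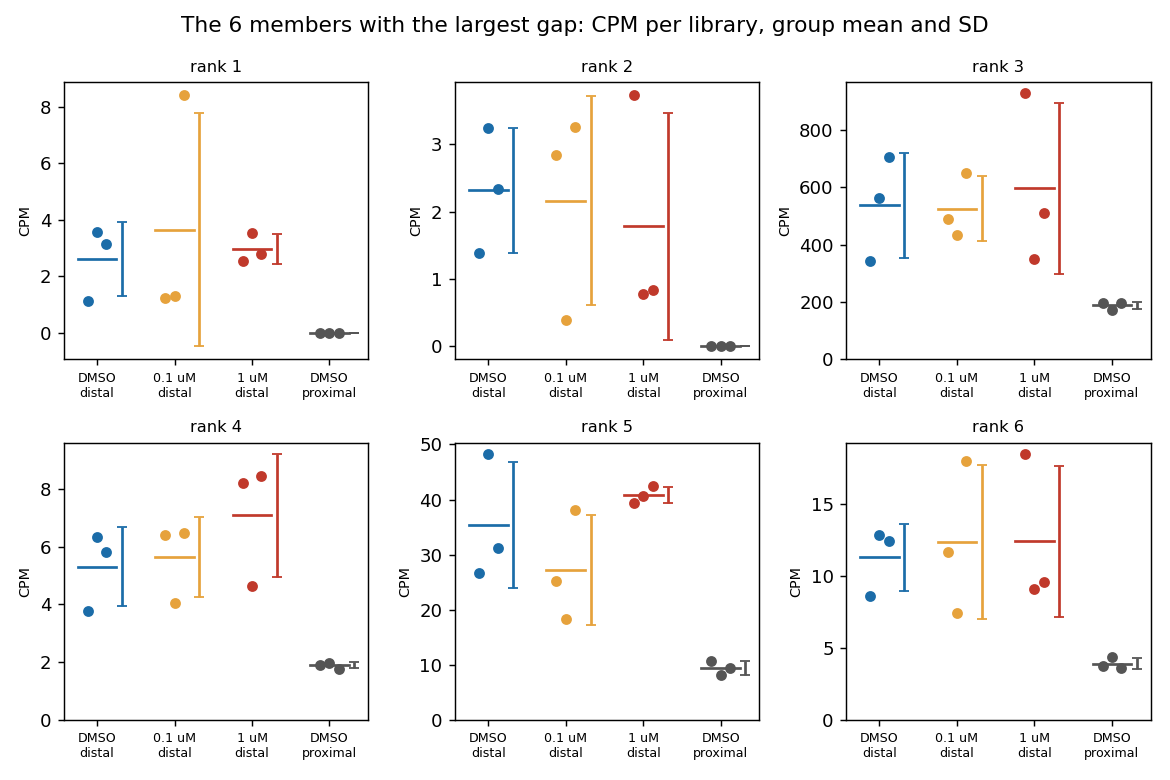
CPM in each library (points) for the 6 members with the largest gap, by group, with the group mean (line) and SD (bar, n = 3) on a linear axis. In each panel all 3 proximal points lie below all 9 distal points, and each dose group overlaps distal vehicle. For rank 3 the distal means are 537, 526 and 597 CPM against 188 CPM in proximal blastemas. In rank 5 all points of 1 uM TAL lie above all points of 0.1 uM TAL with CPM by the library total, an order that TMM factors do not keep.

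All of the 31 members with a gap above 0 were detected in every distal library, and 24 were detected in every proximal library too. Of the remaining 7, 2 were listed at 0 in all 3 proximal libraries, ranks 1 and 2. Most were low. The mean CPM over the 9 distal libraries ran from 0.959 to 553 with a median of 4.62, 15 genes lay from 1 to under 5 CPM and 4 above 100 CPM. Proximal minus distal vehicle ran from -2.52 to -1.01 on the log2(CPM + 0.5) scale with a median of -1.41, against a median of -0.01 over the 21835 genes, and the upper end is fixed by the rule. The SD between libraries of a group, pooled over the 4 groups, had a median of 0.44 log2 over the 31 and 0.40 over all 21835 genes. By group the 31 were more spread than all genes in distal libraries and less in proximal ones. Their medians were 0.49 under distal vehicle, 0.37 with 0.1 uM TAL and 0.42 with 1 uM TAL, against 0.38, 0.34 and 0.27 over all genes. In proximal libraries the median was 0.24 against 0.36, and the rule favours genes whose highest proximal value is low.

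The summed level of the 31 showed how unequal the distal pools were. It was 1271, 2540 and 2977 CPM in the distal vehicle libraries, 1910, 1551 and 2177 with 0.1 uM TAL, 3266, 1699 and 2436 with 1 uM TAL, and 921, 704 and 759 in the proximal libraries. Distal vehicle library 1 was the lowest distal library and 1 uM TAL library 1 the highest. Without the 4 most abundant members the sums were 165, 294 and 264 under distal vehicle, 215, 163 and 275 with 0.1 uM TAL, 317, 204 and 248 with 1 uM TAL and 85.9, 72.3 and 75.5 in proximal libraries. Distal vehicle library 1 and 0.1 uM TAL library 2 were the lowest distal libraries in both sums, and 1 uM TAL library 1 was the highest.

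The same libraries set the gap. Distal vehicle library 1 was the lowest distal library for 13 of the 31 members and 0.1 uM TAL library 2 for 10, so that 23 of the 31 gaps were set by these libraries. In distal vehicle library 1, 2 of the 31 members were above their group mean, with a median deviation of -0.49 log2, and in 0.1 uM TAL library 2 the count was again 2, with a median of -0.37. In distal vehicle libraries 2 and 3, 28 and 22 of the 31 were above the mean. Library 2 of 1 uM TAL was low as well, with 6 of 31 above the mean and a median of -0.38. Proximal library 1 had 25 of 31 above its group mean and held the highest proximal value for 13 members. Over the 21835 genes the median level was 1.996, 2.332 and 2.191 log2 in distal vehicle libraries 1, 2 and 3. Distal vehicle library 1 was thus the lowest of its group over all genes too. The counts above the group mean were not made over all genes, so the sizes cannot be compared. With 0.1 uM TAL the median was 2.158, 2.063 and 1.975, so library 2 was not the lowest. Library 3 was the lowest there, while 26 of the 31 members were above their group mean in it. With 1 uM TAL it was 2.378, 2.225 and 2.221, highest in library 1, and in proximal libraries 2.234, 1.998 and 2.023.

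The 4 most abundant members moved together from pool to pool. Rank 19 was at 294, 614 and 735 CPM under distal vehicle, at 427, 285 and 420 with 0.1 uM TAL, at 674, 391 and 549 with 1 uM TAL and at 235, 134 and 146 in proximal libraries. Rank 20 was at 257, 559 and 624 CPM under distal vehicle, at 386, 256 and 394 with 0.1 uM TAL, at 595, 356 and 488 with 1 uM TAL and at 212, 139 and 149 in proximal libraries. Both were lowest in distal vehicle library 1 or 0.1 uM TAL library 2 among the distal libraries and highest in distal vehicle library 3. Deviations from the group means of ranks 3, 26, 19 and 20 across the 12 libraries had pairwise Pearson correlations from 0.80 to 0.99 in their 6 pairs, given as a description since the members share libraries and scaling. The mean over pairs was 0.36 for the other 27 members with a gap above 0, 0.15 for all 21835 genes and 0.0026 for the 29 members with a gap of 0. These sets were not matched for level. Whether other genes of like abundance moved together as much was not tested. Gene lengths were not used here, so a higher CPM does not rank these genes by number of transcripts.

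**Figure D3:**
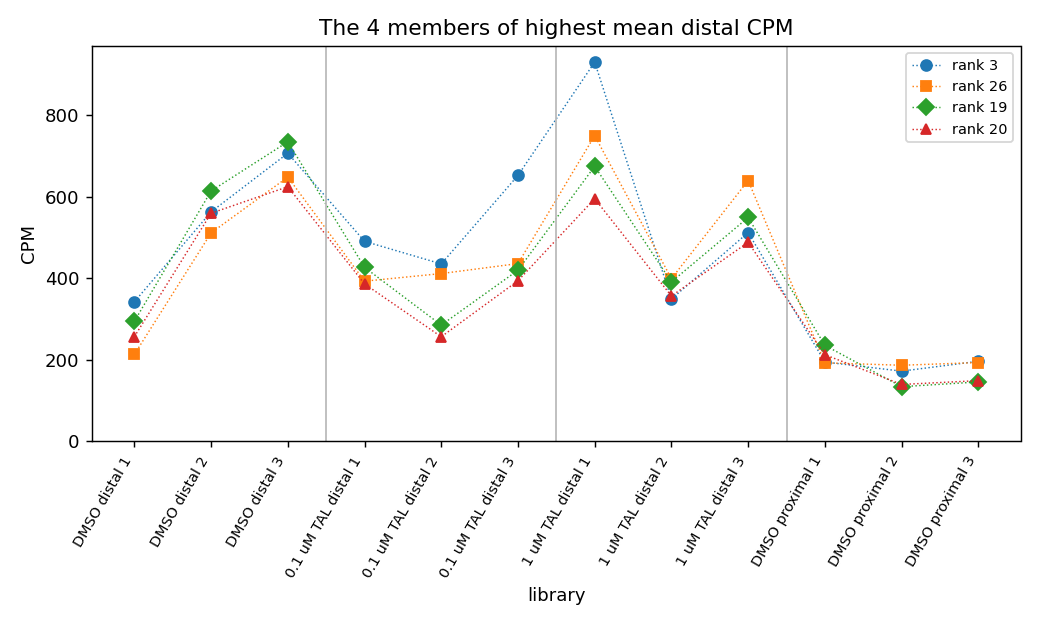
CPM of the 4 members of highest mean distal CPM (ranks 3, 26, 19 and 20) in the 12 libraries on a linear axis starting at 0, with dotted lines joining the points of a gene as a guide for the eye. The 4 genes dip together in distal vehicle library 1 and peak in distal vehicle library 3 and 1 uM TAL library 1, and the proximal libraries lie between 134 and 235 CPM.

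The 29 members with a gap of 0 were sporadic. They were listed at 0 in the proximal libraries, and 10 of them were above 0 in 3 distal libraries, 1 of each group. A further 5 were above 0 in 4 distal libraries, 7 in 5, 5 in 6, and the last 2 in 7 and 8, while 0 were above 0 in all 9. The 7 include ranks 41, 42, 45 and 46, which held the same values as each other in every library. At least 1 distal vehicle library was at 0 for 27 of the 29, at least 1 library of 0.1 uM TAL for 28, and at least 1 of 1 uM TAL for 28. Between 11 and 18 of the 29 were above 0 in a given distal library. Their mean distal CPM lay between 0.617 and 3.35 with a median of 1.37, and the SD between libraries of a group had a median of 1.39 log2. Dose means within 0.5 of the distal vehicle mean thus came from few detections per group in most of these genes.

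AMEX60DD041244, of rank 57, had the largest rise from 0.1 to 1 uM TAL among the 60 by group means, 0.87 on the log2(CPM + 0.5) scale. It was at 7.03 CPM in distal vehicle library 2, at 2.63 CPM in 0.1 uM TAL library 3, at 2.68 and 2.48 CPM in 1 uM TAL libraries 1 and 2, and listed at 0 in the other 8 libraries. AMEX60DD017725, of rank 44, had the largest fall, -0.69. It was at 5.66 CPM in distal vehicle library 1, at 1.80 and 3.09 CPM in 0.1 uM TAL libraries 1 and 2, at 3.47 CPM in 1 uM TAL library 1, and at 0 elsewhere. Both extremes of the dose difference rested on a difference of 1 library above 0.

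Values in these rows were also shared with other identifiers more often. The sets compared were not matched for level. Their median mean distal CPM was 1.37 for the 29 members, 4.62 for the 31 and 4.04 for all 21835 genes. Whether the sharing exceeded that of other genes of like level was not tested. Of the values of at least 10 held by the 29 members, 81 of 115 (70.4%) were shared with at least 4 other identifiers of the same library, against 28.4% for the 31 members and 30.1% for all 21835 genes. The 4 members of ranks 41, 42, 45 and 46 all held the same values as each other in all 12 libraries, so they repeat the same pattern. Over all 21835 genes, 614 identifiers shared all their values with another one. Reads of near-identical copies can be split in counting, so the levels of these rows are uncertain, and whether they are copies was not tested.

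A fit of all 12 libraries in edgeR, on 41884 genes, held 59 of the 60 members, all 31 with a gap above 0 and 28 of the 29. Comparisons share groups, and the rule used or bounded each of these differences, so nothing is read from the counts of members called. Between proximal and distal vehicle, 0 members were called at an adjusted p under 0.05 and 35 had an unadjusted p under 0.05, where 0.0119% and 6.35% of all genes did. DESeq2 called 17 members and 1.28% of all genes, and limma-trend called 0 members and 0.103% of all genes. Without library 3 of 0.1 uM TAL, edgeR called 1 member in this comparison, with an adjusted p of 0.0476, and 10 of all 46221 genes in that fit. All 31 members with a gap above 0 had a 95% interval below 0, and their fitted log2 difference had a median of -1.70.

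Between 1 uM TAL and proximal vehicle, edgeR called 0 members (0.0% of all genes) and 32 had an unadjusted p under 0.05 (6.76%), while DESeq2 called 15 (1.28%) and limma-trend 0 (0.0382%). The lowest adjusted p in edgeR was 0.183, for rank 5, with a log2 difference of 2.06 (SE 0.295). Between 0.1 uM TAL and proximal vehicle, edgeR called 0 members (0.0143% of all genes) and 33 had an unadjusted p under 0.05 (3.42%), while DESeq2 called 16 (0.661%) and limma-trend 0 (0.0979%). Rank 1 had the lowest adjusted p there in edgeR, 0.356. Fitted log2 differences over the 31 had a median of 1.77 for 1 uM TAL and 1.61 for 0.1 uM TAL, beside -1.70 for proximal minus distal vehicle. These comparisons share the proximal libraries.

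Dose effects within distal blastemas were small in the group means, as the rule required, and were loosely bounded. For 1 uM TAL against distal vehicle, edgeR called 0 members (0.0239% of all genes), 0 had an unadjusted p under 0.05 (4.79%), and DESeq2 and limma-trend called 0 (1.16% and 0.0836%). For 0.1 uM TAL against distal vehicle, edgeR called 0 members (0.0%), 0 had an unadjusted p under 0.05 (3.23%), and DESeq2 and limma-trend called 0 (0.37% and 0.0454%). For 1 uM against 0.1 uM TAL, edgeR called 0 members (0.0119%), 0 had an unadjusted p under 0.05 (6.04%), and DESeq2 and limma-trend called 0 (1.04% and 0.0836%). A p that misses the threshold does not show that the level was kept, and the intervals of the differences were wide. Over the 31 members the 95% interval reached a median of 0.98 log2 to each side of the estimate at 1 uM TAL, and 11 of the 31 intervals lay within -1 and 1. At 0.1 uM TAL, 8 of 31 intervals lay within those bounds, and between the doses 7 did. The interval reached a change of -1 or lower for 15 of the 31 members at 1 uM TAL and for 19 at 0.1 uM TAL. With 3 libraries a group, a loss as large as 1 log2 could not be told from no change for those genes. For the 28 members with a gap of 0 that were tested, the interval reached a median of 6.16 log2 to each side at 1 uM TAL, and 0 lay within -1 and 1.

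**Figure D4:**
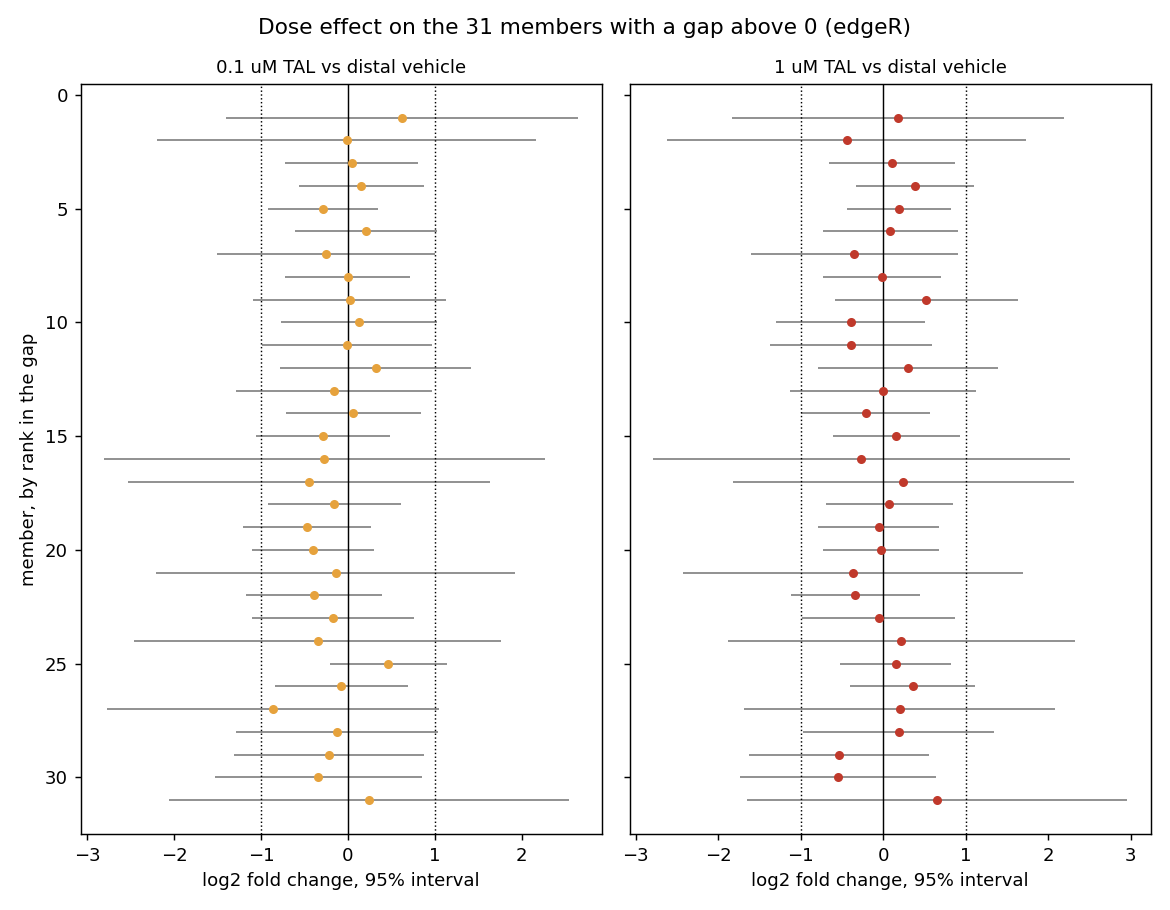
Fitted log2 difference (points) with its 95% interval (lines) from edgeR for the 31 members with a gap above 0, by rank, for 0.1 uM TAL (left) and 1 uM TAL (right) against distal vehicle, with dotted lines at -1 and 1. All intervals include 0, and 8 on the left and 11 on the right lie within the dotted lines.

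The group means of the 31 members at the 2 doses were held near the distal vehicle mean by the rule, and are given as values. The median difference from distal vehicle was 0.08 at 1 uM TAL, with a range from -0.49 to 0.48, and -0.15 at 0.1 uM TAL, with a range from -0.47 to 0.41, on the log2(CPM + 0.5) scale. Over the 21835 genes the medians were 0.15 and -0.06. These medians depended on single libraries, though each change was smaller than the SD of library medians within groups, 0.38 log2. At 1 uM TAL the median over the 31 was -0.19, 0.18 and 0.23 without distal vehicle libraries 1, 2 and 3, and -0.14, 0.23 and 0.14 without 1 uM TAL libraries 1, 2 and 3. At 0.1 uM TAL it was -0.45, -0.05 and -0.06 without distal vehicle libraries 1, 2 and 3, and -0.19, 0.00 and -0.32 without 0.1 uM TAL libraries 1, 2 and 3. The sign at 1 uM TAL thus turned without distal vehicle library 1 or 1 uM TAL library 1.

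Between the doses, the median of 1 uM minus 0.1 uM TAL over the 31 was 0.19, with a range from -0.36 to 0.71, and 0.20 over the 21835 genes. It was 0.16, -0.03 and 0.42 without 0.1 uM TAL libraries 1, 2 and 3, and 0.04, 0.32 and 0.16 without 1 uM TAL libraries 1, 2 and 3. With CPM by the library total, the 1 uM mean lay above the 0.1 uM mean for 23 of the 31 members and for 70.6% of the 21835 genes. With TMM factors in place of the library total, and nothing else changed, the median over the 31 was 0.11. The edgeR fit used TMM factors too, but also another estimate of the difference and a wider set of genes, AMEX60DDU included. In that fit the difference was above 0 for 18 of the 31 members, and its median over all 41884 genes was -0.05. Which of these changes moved the counts was not tested. Against distal vehicle, the 1 uM difference was above 0 for 20 of the 31 by the library total and for 16 in the fit, and the 0.1 uM difference for 8 and 10. By the library total, 67.5% of the 21835 genes were above 0 at 1 uM TAL and 43.2% at 0.1 uM TAL.

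The rule was also applied to 11 libraries, leaving out each library in turn, and the left-out library was read for the genes then chosen. The other libraries on both sides of the gap still served in the choice, so a high share is in part built in. Beside the genes chosen with a gap above 0 stand all genes that met the limits on the group means in the same round. With a library of 1 uM TAL left out, 28 of 29, 26 of 30 and 28 of 32 genes with a gap above 0 were above all 3 proximal libraries in it, where 62.3%, 63.9% and 61.1% of the genes within the limits were, and 48.3%, 27.8% and 24.2% of all genes meeting the count minimum. With a library of 0.1 uM TAL left out the counts were 28 of 32, 32 of 44 and 21 of 27, against 37.9%, 32.2% and 44.6% within the limits and 22.9%, 16.6% and 14.8% of all genes. With a distal vehicle library left out they were 23 of 29, 25 of 26 and 26 of 27, against 43.7%, 55.7% and 53.5% within the limits and 15.2%, 38.2% and 25.6% of all genes.

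The genes chosen in the same rounds with a gap of 0 are given by counts above all 3 proximal libraries. These were 18 of 31, 13 of 30 and 14 of 28 at 1 uM TAL, 6 of 28, 6 of 16 and 12 of 31 at 0.1 uM TAL, and 9 of 31, 5 of 34 and 11 of 33 under distal vehicle. A left-out proximal library had to lie below all 9 distal libraries, a stricter condition than being above 3, so its counts are not comparable with those of the distal libraries. It did so for 22 of 60, 29 of 60 and 32 of 44 genes with a gap above 0, against 12.8%, 21.7% and 28.5% of the genes within the limits and 3.19%, 15.5% and 16.1% of all genes.

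The level of the left-out TAL libraries was read against the distal vehicle mean, which the limits of the rule had used as their baseline, so this reading is a description too. In the left-out libraries of 1 uM TAL the genes chosen with a gap above 0 had median differences from that mean of 0.40, -0.39 and -0.07, and all genes had 0.32, 0.09 and 0.04. In those of 0.1 uM TAL the medians were -0.17, -0.73 and 0.03, and all genes had 0.05, -0.03 and -0.20. At 1 uM TAL 93.1%, 83.3% and 96.9% of the chosen genes lay within 1 log2 of the mean, near the 84.0%, 87.9% and 87.0% of all genes. At 0.1 uM TAL the shares were 90.6%, 72.7% and 81.5%, against 85.2%, 83.4% and 87.6% of all genes. The chosen genes were thus below the share of all genes in 3 of the 6 left-out TAL libraries, library 2 of 1 uM TAL and libraries 2 and 3 of 0.1 uM TAL. Genes chosen in different rounds overlap and share the other libraries, so these counts are not independent of each other.

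**Figure D5:**
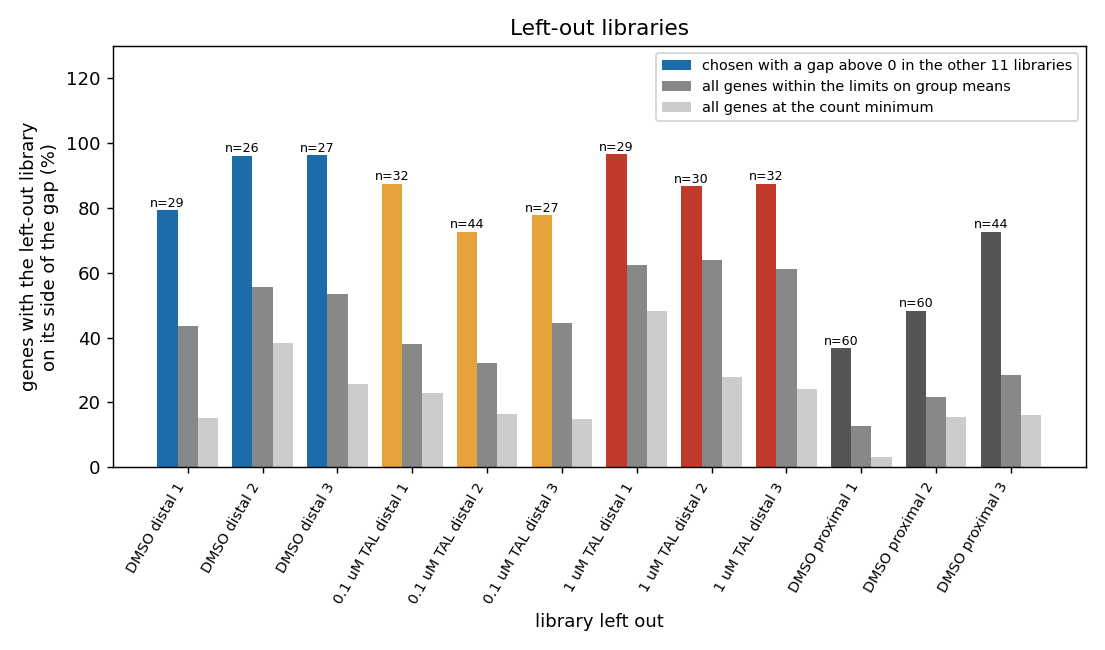
Percentage of genes whose left-out library lay on its side of the gap, for genes chosen with a gap above 0 from the other 11 libraries (coloured bars, n above each bar), for all genes within the limits on the group means (dark grey) and for all genes meeting the count minimum (light grey). A distal library was on its side when above all 3 proximal libraries and a proximal one when below all 9 distal ones; the dark grey bars run from 32.2% to 63.9% for distal libraries and from 12.8% to 28.5% for proximal ones.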

How the data were processed

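RNA-seq libraries of axolotl forelimb blastemas, 12 in 4 groups of 3, were analysed from the gene table deposited by the authors. The authors deposited estimated counts per gene, made with Salmon by the name of the table. Trimmomatic 0.38 and Salmon 0.13.1 are listed, per the submitters' processing notes, while the index, annotation and genome build are not given in the sources used here. Few values were whole (0.874 to 1.16% of values above 0 in a library), and the value 1 did not stand for 1 read. Of 15 columns of libraries, 3 were not used because their names matched no described sample. Of the identifiers, 0 matched the RefSeq gene list for UKY_AmexF1_1, so a panel of limb and retinoic acid genes and marker lists of cell types could not be applied, and no sequence was printed.

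Members were chosen with log2(CPM + 0.5), CPM by the column total. Members, gene lists and tests were chosen with earlier results of these data known. Equal gaps were taken in table order. For tests, values were rounded to whole numbers, filtered with filterByExpr and fitted in 1 model of all 12 libraries with edgeR 4.0.16 (TMM, glmQLFit, glmQLFTest) in R 4.3.3, with Benjamini-Hochberg adjustment over all 41884 genes. DESeq2 1.42.0 and limma-trend of limma 3.58.1 were alternatives. Both edgeR and DESeq2 treat the rounded values as read counts, which they are not shown to be. Their SEs, intervals and calls rest on this and are approximate. The common biological coefficient of variation in edgeR, its estimate of the relative spread between libraries of a group, was 1.01. The labels do not say that pools of a group came from separate clutches or days, so p-values measure only the spread between these pools. The edgeR and limma-trend scripts were run on simulated read counts, with changes planted only in genes of higher level and lower spread. Most members were lower, so that run does not show how the tests perform on them. Other alternatives were the scaling, the pseudocount, the count minimum, the number of genes taken and each library left out.

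The rule for naming was written for genes with symbols. With identifiers only, it named the 2 members with the largest gap, the 2 with the highest mean distal CPM, and the members with the highest and the lowest difference between the doses. Other members are given by rank. Ranks 4, 5, 6, 19, 20, 41, 42, 45 and 46 were picked after their values were seen. Replicate numbers come from the titles. Same-numbered libraries of different groups did not deviate together (mean correlation of deviations -0.0135 over 18 pairs, and 0.0067 over the 36 pairs whose numbers differed). The main fit did not pair libraries by number. With 3 libraries a group, these correlations cannot exclude that same-numbered pools shared an origin.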

Additional observations from a re-analysis of the deposited data

How the results depend on the processing

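Membership depended on the settings. Of the 60 members, 30 were chosen again with a pseudocount of 1, 17 with a pseudocount of 2, 33 with 10 counts required in at least 6 libraries, and from 20 to 46 when 1 library was left out, lowest without proximal library 1. Genes with a gap above 0 numbered 31, but 17 with a pseudocount of 2 and from 26 to 151 when 1 library was left out. The 151 came without proximal library 1, and 62 came without proximal library 2. Over the 60 members the median of proximal minus distal vehicle was -1.32, and it was -0.996 with a pseudocount of 1 and -0.70 with a pseudocount of 2. The other 34 of 36 alternatives of the medians over the 60, and 36 of 36 over the 31, moved by less than the spread between libraries. This spread, the SD of library medians within groups, was 0.31 log2 over the 60 and 0.38 over the 31. It was wider than the medians of the dose differences themselves, so even a change of their sign could lie within it. With DESeq2's size factors the median of all genes at 1 uM TAL against distal vehicle was -0.14 in the edgeR fit, and that of the 31 members -0.0042.

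The rule held the dose differences small, so 0 calls in the comparisons among distal groups were largely built in. With these comparisons included, members called stayed at 0 in 110 of 114 alternatives, which is therefore no measure of stability. The exceptions were DESeq2's own test, with 17, 15 and 16 calls in the comparisons with proximal vehicle of distal vehicle, 1 uM TAL and 0.1 uM TAL, and the fit without 0.1 uM TAL library 3, with 1 call between proximal and distal vehicle (0 to 1 over all left-out libraries). In that last fit, 10 of all 46221 genes were called between proximal and distal vehicle. The cause of these exceptions was not tested. With the replicate block, 0 members and 0 of all 41884 genes were called in each of the 6 comparisons. Without it, 0 members were called too. Between proximal and distal vehicle, 30 rather than 35 members had an unadjusted p under 0.05 in edgeR, and 1960 rather than 2659 of all genes. The use of limma-trend, the order of equal gaps, the count of genes with a gap above 0 and the medians over the 31 were added after seeing the data. With 3 pools a group, changes under about 1 log2 could not be resolved for most members.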
